A study of Mus musculus with 8 samples.

Results

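The serotonin receptors described here are 9 genes, Htr1a, Htr1b, Htr1f, Htr2a, Htr2c, Htr3a, Htr4, Htr5a and Htr7, out of 21643 gene symbols in a table of read counts per RefSeq transcript. They were chosen by name, and each gene was represented by its transcript with the highest count summed over the libraries. Of the 9 genes, 8 had 1 row in the table, and Htr3a had 2 rows with identical counts, of which the first listed was used. The counts came from polyribosome-associated RNA of C57Bl/6 mice aged 7 to 9 weeks. Frontal cortex and hippocampus were each sampled 1 h and 6 h after contextual fear conditioning, which pairs a chamber with foot shock, or after exposure to the context alone (control). Each of the 8 combinations of tissue, training and time was 1 library, and the sources used here do not say how many animals a library held or whether 1 mouse gave both tissues. The design text names the prefrontal cortex and not the hippocampus, while 4 of the 8 libraries carry the hippocampus label. The p-values therefore measure only the spread between these libraries, part of which may be technical.

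Serotonin reaches the forebrain through axons of the raphe nuclei, whose cell bodies lie in the brainstem, so forebrain tissue holds the receptors rather than the synthesis of the transmitter. The receptors fall into classes by what they couple to. The products of Htr1a, Htr1b, Htr1f and Htr5a couple to Gi/o proteins and lower cyclic AMP, those of Htr2a and Htr2c couple to Gq and phospholipase C, those of Htr4 and Htr7 couple to Gs and raise cyclic AMP, and Htr3a encodes a subunit of a cation channel. In cortex the 5-HT2A receptor is known from pyramidal neurons, in hippocampus the 5-HT1A receptor is known from pyramidal and granule neurons, and in both the channel is known from interneurons.

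The libraries held between 2370973 and 5296986 counts. In the conditioned 1 h pair, the library labelled cortex and the one labelled hippocampus differed by about as much as counting noise alone gives. Over 11338 genes their mean chi-square per gene was 1.06, where 1 is counting noise alone, with 0 genes past an adjusted p of 0.05 (chi-square test) and 5.89% past 0.05 unadjusted. Any other 2 libraries differed more, from 4.86 upwards. The conditioned 1 h pair was counted as 1 sample, left out of the comparison of tissues and summed to 1 library elsewhere. In the other 6 libraries markers went with the tissue labels. All 10 markers of hippocampal granule and pyramidal neurons were higher in hippocampus, with a summed level of 655.7 to 1002 CPM (counts scaled to library size) against 70.6 to 85.6 CPM in cortex, and 359 to 378 CPM in the pair. The hippocampus control 6 h library was the shallowest and had 8.01% of its counts on Kif5c, a kinesin motor, against 0.0382% to 0.545% in the others.

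Per kilobase of transcript, a scale that allows for transcript length, Htr2a had the highest mean level of the 9 receptors in cortex and Htr1a in hippocampus. In cortex (n = 3 libraries) the levels were 7.83 ± 0.46 (mean ± SD) CPM per kilobase for Htr2a, 6.19 ± 0.85 for Htr5a, 4.42 ± 0.28 for Htr2c, 4.13 ± 1.24 for Htr1b and 3.69 ± 1.05 for Htr1a. They were followed by Htr3a at 2.02 ± 0.78, Htr1f at 0.88 ± 0.32, Htr7 at 0.66 ± 0.25 and Htr4 at 0.14 ± 0.08. Htr2a lay above Htr5a, and Htr5a above Htr2c, in ranges of library values that did not overlap. Counting error did not separate Htr2a from Htr5a within every cortex library. The ratio of Htr5a to Htr2a per kilobase was 0.63 (counting interval 0.49 to 0.80) in cortex control 1 h. It was 0.84 (0.69 to 1.02) in cortex control 6 h and 0.92 (0.76 to 1.13) in cortex conditioned 6 h. Both 6 h intervals included equal levels. Htr2c overlapped Htr1b, Htr1b overlapped Htr1a, Htr1a overlapped Htr3a and Htr1f overlapped Htr7. Htr3a lay above Htr1f, and Htr7 above Htr4, without overlap. In hippocampus (n = 3) the order of means was Htr1a at 5.95 ± 0.35 CPM per kilobase, Htr3a at 5.54 ± 0.20 and Htr2c at 4.76 ± 1.03. All 3 ranges overlapped one another. In the control 6 h library Htr2c (5.71) and Htr3a (5.57) stood above Htr1a (5.55). Below these 3 receptors stood Htr5a at 2.67 ± 0.72, Htr1b at 2.52 ± 1.45 and Htr2a at 1.53 ± 0.13, with Htr1b overlapping both Htr5a and Htr2a. Htr2c lay above Htr5a, and Htr2a above Htr4, without overlap. Htr4 followed at 1.26 ± 0.06, Htr1f at 0.64 ± 0.56 and Htr7 at 0.54 ± 0.40, with Htr1f overlapping both of the others. Transcript lengths for this scale came from GENCODE and ran from 1273 bases (Htr1b) to 5606 bases (Htr2a). The scale allows for length alone, and whether reads were proportional to transcript length here was not tested.

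**Figure D1:**
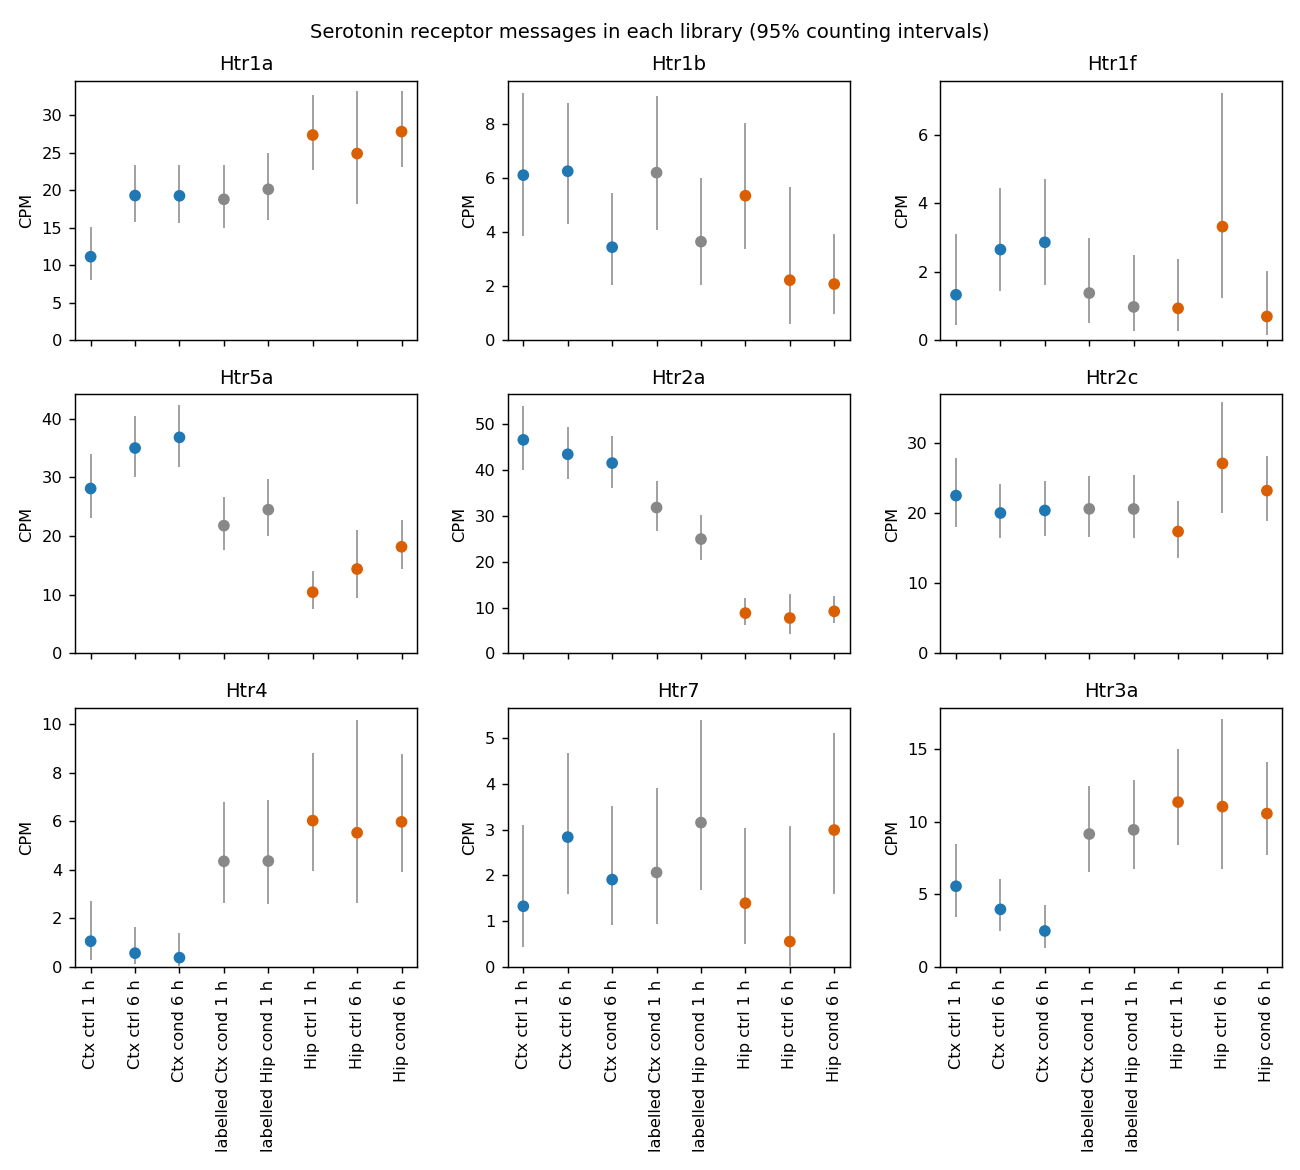
Level of each receptor (CPM, y axis) in each of the 8 libraries (x axis), with exact 95% counting intervals as bars; blue points are cortex (Ctx), orange points hippocampus (Hip), and grey points the conditioned 1 h pair that could not be told apart. Htr2a is high in all 3 cortex libraries (41.6 to 46.6 CPM) and low in all 3 hippocampus libraries (7.75 to 9.20 CPM), Htr4 shows the opposite, and Htr2c lies between 17.4 and 27.1 CPM in every library.

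The comparison of hippocampus with cortex, without the conditioned 1 h pair, separated 3 receptors. Htr2a and Htr5a were lower in hippocampus and Htr4 was higher, so that 3 of 9 receptors passed an adjusted p of 0.05 in edgeR's quasi-likelihood test, where 3.72% of the 16123 rows tested passed (1.72% as higher and 2% as lower). All 9 passed the filter on low counts. The median log2 change of the receptors was -0.18, against 0.00 over all rows. Of the 9 receptors, 5 (Htr1a, Htr2a, Htr3a, Htr4 and Htr5a) had ranges that did not overlap between 3 cortex and 3 hippocampus libraries, as did 13.5% of all rows tested. These are bulk samples of polyribosome-associated RNA, in which fewer cells of a type, less RNA per cell and less of it on polyribosomes cannot be told apart.

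Htr2a encodes the Gq-coupled 5-HT2A receptor, the main target of psychedelic drugs. Its levels in cortex were 46.6 CPM (control 1 h), 43.5 CPM (control 6 h) and 41.6 CPM (conditioned 6 h). In hippocampus they were 8.81, 7.75 and 9.20 CPM in the same order. Every cortex library lay more than 4 times above every hippocampus library, with counts of 624 against 92 in all and a ratio of 4.96 (95% counting interval 3.98 to 6.25). The log2 change was -2.36 (SE 0.37, edgeR adjusted p = 0.000338), and the 3 matched pairs gave -2.34, -2.42 and -2.12. The call held in 14 of 15 alternatives and was lost when the pair was used as labelled (-1.82, adjusted p = 0.248), a fit in which 0 of 16304 rows passed in edgeR. The libraries labelled cortex and hippocampus conditioned 1 h stood at 31.9 and 24.98 CPM, both between the 1 h controls.

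Htr2c, the other Gq-coupled receptor of the set, whose transcript is edited by adenosine deaminases and which is abundant in choroid plexus, had no such difference. Its levels in cortex were 22.5, 20.04 and 20.4 CPM (control 1 h, control 6 h, conditioned 6 h) and in hippocampus 17.4, 27.1 and 23.2 CPM. The tissues overlapped, and the log2 difference was 0.07 (SE 0.36, edgeR adjusted p = 0.968). Choroid plexus markers were measured beside it, since their epithelium is a known source of this message. Of 10 genes 4 were tested and 3 were higher in hippocampus, while Clic6 went the other way and did not pass (-0.25, SE 0.76). Summed over all 10, the markers stood at 5.91 to 10.0 CPM in cortex and 31.0 to 84.9 CPM in hippocampus. Ttr, transthyretin, the most abundant of them, had 42.9 CPM in the hippocampus control library at 1 h, 4.43 CPM in that at 6 h and 54.97 CPM in the conditioned one. In the same order Kl, another marker of that epithelium, had 13.0, 11.1 and 20.01 CPM, and Prlr, the prolactin receptor, 2.78, 7.75 and 2.30 CPM, so the markers did not share 1 order over these libraries. The part of choroid plexus in the Htr2c level was not tested.

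Because both are counted in the same library, the ratio of Htr2a to Htr2c does not depend on scaling between libraries. Per kilobase it was 1.75, 1.84 and 1.73 in the cortex libraries (control 1 h, control 6 h, conditioned 6 h) and 0.43, 0.24 and 0.34 in the hippocampus libraries. The intervals of the cortex libraries, from 1.35 to 2.34 at their widest, did not meet those of the hippocampus, from 0.12 to 0.64. The pair gave 1.31 and 1.03. The ratio of Htr1a to Htr2a turned the other way, at 0.30, 0.55 and 0.58 in cortex and 3.88, 4.02 and 3.78 in hippocampus.

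Among the Gi/o-coupled receptors, Htr5a, a receptor with few known ligands, followed Htr2a. It had 28.1, 35.0 and 36.8 CPM in cortex (control 1 h, control 6 h, conditioned 6 h) and 10.4, 14.4 and 18.2 CPM in hippocampus. All cortex libraries lay above all hippocampus libraries, and the log2 change was -1.25 (SE 0.35, edgeR adjusted p = 0.0492). This call lay at the threshold and held in 5 of 15 alternatives, with the direction the same in 15 of 15. It was lost without cortex control 1 h (adjusted p = 0.508), cortex conditioned 6 h (0.129), hippocampus control 1 h (0.51) or hippocampus conditioned 6 h (0.143), and in DESeq2 (0.052). Other settings lost it too, at edgeR adjusted p of 0.0722 (upper-quartile factors), 0.0736 (rows of a gene summed) and 0.0559 (low-count filter by group). The fit of tissue alone gave 0.311 and the pair as labelled 0.354.

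Htr1a encodes the 5-HT1A receptor, which opens inwardly rectifying potassium channels and is also the autoreceptor of raphe neurons. Its level was 11.1, 19.3 and 19.3 CPM in cortex and 27.4, 24.9 and 27.8 CPM in hippocampus, in the order control 1 h, control 6 h and conditioned 6 h. The groups did not overlap, but the log2 difference of 0.71 (SE 0.36, edgeR adjusted p = 0.411) did not pass. Htr1b, a receptor of axon terminals, had 6.10, 6.24 and 3.43 CPM in cortex and 5.34, 2.21 and 2.07 CPM in hippocampus, with ranges that overlapped (-0.73, SE 0.49, edgeR adjusted p = 0.604). Htr1f had between 3 and 15 counts in a library, and its difference (-0.70, SE 0.68) was not detectable at this depth.

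The Gs-coupled Htr4 differed most among the 9 receptors. It had 4, 3 and 2 counts in the cortex libraries of control 1 h, control 6 h and conditioned 6 h, and 26, 10 and 26 in those of hippocampus, which is 0.38 to 1.06 CPM against 5.53 to 6.03 CPM. Hippocampus was high in 3 of 3 matched pairs, with 62 counts against 9 and a ratio of 9.42 (counting interval 4.65 to 21.6). The log2 change was 3.119 (SE 0.61, edgeR adjusted p = 0.00315). The call held in 12 of 15 alternatives. It was lost without hippocampus conditioned 6 h (2.79, adjusted p = 0.105), without the block of training and time (3.119, adjusted p = 0.0542) and with the pair as labelled (2.01, adjusted p = 0.278). Htr7, the other Gs-coupled receptor, had 5, 15 and 10 counts in cortex and 6, 1 and 13 in hippocampus, with no difference detectable at this depth (-0.18, SE 0.67).

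Htr3a, the channel subunit, had 5.57, 3.97 and 2.48 CPM in cortex (control 1 h, control 6 h, conditioned 6 h) and 11.4, 11.1 and 10.6 CPM in hippocampus. All hippocampus libraries lay above all cortex libraries, and the log2 difference was 1.49 (SE 0.44, edgeR adjusted p = 0.0581). It passed in 4 of 15 alternatives, among them without cortex control 6 h (adjusted p = 0.0334) and without hippocampus control 6 h (adjusted p = 0.0386). Interneurons of the caudal ganglionic eminence are the known cells of this receptor. The summed level of 10 of their markers was 416 to 765 CPM in cortex and 749.6 to 823 CPM in hippocampus. Its largest part was Cck, at 324 to 662 CPM in cortex and 367 to 585 CPM in hippocampus. Prox1 added 17.5 to 20.4 CPM in cortex and 134 to 256 CPM in hippocampus. Of 8 tested, 1, Prox1, was higher in hippocampus, a message that granule neurons of the dentate gyrus also hold. The sum is therefore no measure of these interneurons alone. Their part in the Htr3a difference was not tested.

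**Figure D2:**
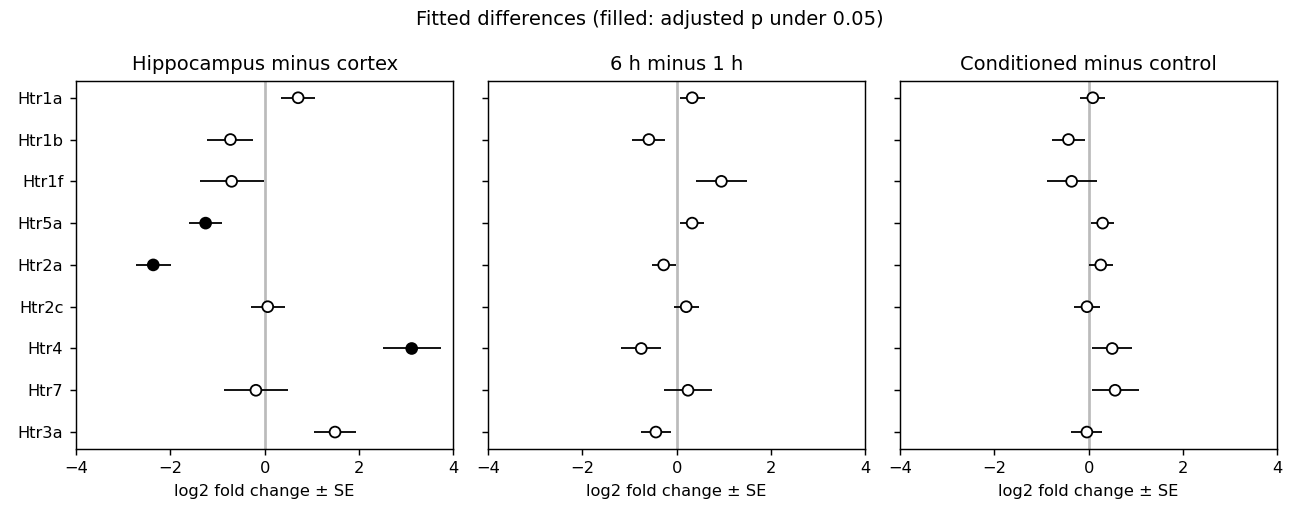
Fitted log2 fold change (x axis, bars ± SE) of the 9 receptors (y axis) between tissues (left, 6 libraries), times (middle) and training states (right, both 7 libraries with the conditioned 1 h pair summed); filled points passed an adjusted p of 0.05. Htr2a (-2.36), Htr5a (-1.25) and Htr4 (3.119) are filled between tissues, and no receptor is filled for time or training.

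Expressed as shares of the 9 receptors per kilobase, the tissues did not overlap in the Gq-coupled, Gs-coupled and channel classes and overlapped in the Gi/o class. Gq-coupled receptors took 44.2%, 37.7% and 40.9% of the receptor total in cortex (control 1 h, control 6 h, conditioned 6 h) and 20.7%, 28.1% and 25.5% in hippocampus. The channel took 4.36% to 9.48% in cortex and 20.8% to 22.6% in hippocampus. The Gs-coupled class took 2.24% to 3.30% in cortex and 5.41% to 8.83% in hippocampus. The Gi/o class took 44.1% to 52.7% in cortex and 44.5% to 49.8% in hippocampus. The receptor total was 28.6 to 31.8 CPM per kilobase in cortex and 25.3 to 25.6 in hippocampus. These shares are made of the differences given above and were not tested separately.

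**Figure D3:**
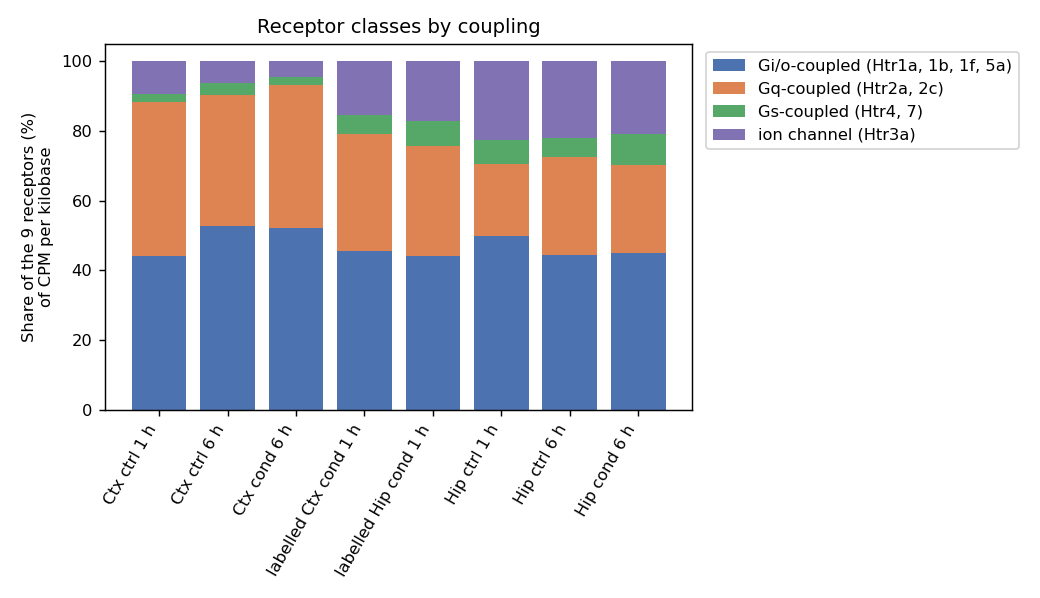
Share of the summed level of the 9 receptors (CPM per kilobase, y axis, percent) taken by each coupling class in each library (x axis; Ctx, cortex; Hip, hippocampus). Gq-coupled receptors fall from 37.7% to 44.2% in the 3 cortex libraries to 20.7% to 28.1% in the 3 hippocampus libraries, and the channel takes 20.8% to 22.6% in hippocampus.

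The start regions of the receptors that were lower in hippocampus (Htr2a, Htr5a) and of Htr1a, the highest receptor there by mean, are shown for reference. Each is given as 190 bases, from 250 to 61 bases before the RefSeq gene start in GRCm38.p6. Capitals mark a GC box, the motif GGGCGG on either strand.
Htr2a, chr14:74640624-74640813, plus strand: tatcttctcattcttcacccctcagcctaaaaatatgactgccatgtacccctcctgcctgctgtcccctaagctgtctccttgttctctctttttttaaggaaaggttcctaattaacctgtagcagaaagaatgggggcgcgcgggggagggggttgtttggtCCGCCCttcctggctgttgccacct
Htr5a, chr5:27841697-27841886, plus strand: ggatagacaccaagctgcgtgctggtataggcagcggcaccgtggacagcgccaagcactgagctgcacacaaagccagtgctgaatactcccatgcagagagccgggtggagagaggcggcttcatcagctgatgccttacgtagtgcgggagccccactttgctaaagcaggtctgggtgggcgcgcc
Htr1a, chr13:105443443-105443632, plus strand: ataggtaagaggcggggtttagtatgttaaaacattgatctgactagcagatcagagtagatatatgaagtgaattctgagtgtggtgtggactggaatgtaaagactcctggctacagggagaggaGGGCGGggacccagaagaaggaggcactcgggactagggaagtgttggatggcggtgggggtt
The windows of Htr2a and Htr1a each held 1 GC box and that of Htr5a held 0, where 22.8% of 32851 windows of the same length held at least 1. None of these 3 held a cyclic AMP response half-site (TGACG, on either strand, present in 11.7% of windows) or a TATA box (TATAAA, on either strand, present in 8.7%). The GC content was 51.6% for Htr2a and 61.1% for Htr5a, beside a median of 51.6% over all windows. The counts carry no measurement at these sites, so the matches are a description of sequence only.

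Of the 5 other serotonin receptor genes, Htr1d, a Gi/o-coupled receptor of axon terminals, was lower in hippocampus. It had 9, 16 and 4 counts in the cortex libraries (control 1 h, control 6 h, conditioned 6 h) and 0 in all 3 of hippocampus. It was at least 5.39-fold lower there, the 95% limit that 29 counts against 0 allow (edgeR adjusted p = 0.03, and 0.0686 with upper-quartile factors). Htr5b had 3 to 26 counts and did not pass, Htr6 had 0 to 11 and Htr2b 0 to 2, and Htr3b had 0 in every library, which allows up to 0.0902 CPM over the 8 libraries. Of 10 genes of serotonin synthesis, transport and breakdown, 4 were tested and 1 passed. Slc29a4, a low-affinity monoamine transporter of the plasma membrane, was higher in hippocampus, at 12.5, 16.04 and 13.3 CPM against 5.04, 2.27 and 1.14 CPM in cortex (control 1 h, control 6 h, conditioned 6 h), a log2 change of 2.43 (SE 0.49, edgeR adjusted p = 0.00382). Maoa and Maob, the monoamine oxidases, differed by -0.10 and -0.13 and did not pass. Of 5 messages of raphe neurons, 4 had few or no counts. Tph2, the synthesis enzyme of neurons, had 11 counts and Slc6a4, the serotonin transporter, 4 counts over all 8 libraries, and Fev and Gata3 had 0. The remaining one, Slc18a2, the vesicular monoamine transporter, which neurons of other monoamines also use, had 81 counts, with 0 to 4.00 CPM in cortex and 1.61 to 8.30 CPM in hippocampus.

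Among the effectors of the receptors, 2 messages passed between the tissues, both lower in hippocampus. They were Rgs4, a GTPase activator of Gi/o and Gq proteins and 1 of 10 Gi/o effectors tested (-1.79, SE 0.33, adjusted p = 0.00173), and Plcb4, a phospholipase C beta and 1 of 9 Gq effectors tested (-2.002, SE 0.36, adjusted p = 0.00157). None of 12 Gs effectors and none of 12 receptor partners and regulators passed. These are 2 of 43 genes over the 4 lists, near the 3.72% of all rows that passed. With offsets for GC content and length, Itpr1 (-1.04, adjusted p = 0.0113), Gnal (-1.04, 0.00996), Prkacb (-0.87, 0.0288) and Pde4b (-1.03, 0.00862) passed as well, all lower in hippocampus, where 954 of 15744 rows passed. Neuron markers are given beside these differences. Of 10 cortical excitatory markers 5 were lower in hippocampus. Another 3, Fezf2 (0.56), Bcl11b (0.38) and Tle4 (0.28), went the other way and did not pass. The summed level of the 10 was 815 to 841 CPM in cortex and 325 to 560.5 CPM in hippocampus. Of 10 markers of striatal projection neurons 7 were lower in hippocampus (274 to 532.5 CPM in cortex, 132.5 to 143 CPM in hippocampus). None of 4 general neuron markers (Snap25, Syt1, Rbfox3 and Camk2a) passed, with a median log2 change of -0.14. The part of these cells in the receptor differences was not tested. With the pair used as labelled, the calls of Htr1d, Slc29a4, Rgs4 and Plcb4 were lost with those of all other rows.

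The genes whose levels followed each receptor most closely were found by Pearson correlation of log2 CPM over 7 library values, the pair averaged, among 9331 genes. With so few libraries and a shared contrast of tissue, these are descriptions. Htr2a was followed by Rasgef1b (r = 0.996), Stard8 (0.992) and Sowahb (0.992). Htr5a was followed by Adgrl2 (0.996), Tox (0.992) and Cit (0.990). On the hippocampal side, Htr4 was followed by Tns3 (0.994), Serpina3n (0.993) and Tanc1 (0.991), Htr3a by Grik4 (0.993), a kainate receptor subunit, Slc29a4 (0.993) and Tns3 (0.984), and Htr1a by Fam107a (0.982), Zfp236 (0.974) and Chst2 (0.974). Tns3 stood in the lists of both Htr4 and Htr3a. Htr2c, whose tissues overlapped, was followed by Tfg (0.962), Nup93 (0.958) and Pde4dip (0.945), and Htr1b by genes that included Atp6v1e1 (0.971) and Frmd6 (0.953). Htr1f and Htr7 had under 100 counts and were not ranked.

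Libraries taken at 6 h and at 1 h may differ through elapsed time, time of day or preparation, which cannot be told apart. No receptor passed, 0 of 9 in edgeR and 0 of 9 in DESeq2, with 0 of 9 at an unadjusted p under 0.05, while 37.7% of the 16378 rows tested passed (20.5% as higher and 17.2% as lower at 6 h). That share rested on cortex control 1 h, without which 0 rows passed. The receptors had a median log2 change of 0.20 and all rows one of -0.03. The largest differences were those of Htr1f (0.95, SE 0.55), Htr4 (-0.75, SE 0.43) and Htr1b (-0.59, SE 0.35), with edgeR adjusted p of 0.182, 0.176 and 0.197. Htr1b had 4.91 to 6.10 CPM at 1 h (n = 3) and 2.07 to 6.24 CPM at 6 h (n = 4), and Htr1f 0.93 to 1.33 CPM against 0.69 to 3.32 CPM. The times overlapped for all 9 receptors, in groups that each held both tissues, and the share of all rows that overlapped was not measured. Htr2a stood at 28.0 ± 18.9 CPM at 1 h and 25.5 ± 19.7 CPM at 6 h, a spread that holds both tissues, and Htr2c at 20.2 ± 2.59 and 22.7 ± 3.27 CPM.

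Over all genes the time difference moved with base composition, and the receptor messages lie mostly on the GC-poor side. Across 11951 genes the rank correlation between transcript GC content and the log2 change from 1 h to 6 h was -0.77, with a median of 0.82 among genes under 47.3% GC and -0.89 among genes over 53.5% (genes are not independent replicates). The receptors ran from 39.4% GC (Htr1f), 41.3% (Htr2a) and 41.9% (Htr2c) through 44.9% (Htr4) and 45.5% (Htr5a) to 49.1% (Htr1a, Htr7), 53.1% (Htr3a) and 55.9% (Htr1b), beside a median of 50.3% over 11758 genes. With the trend in GC content and length removed, 3 of 9 receptors passed as lower at 6 h, where 9.93% of the 15994 rows passed in either direction, 3.63% as lower and 6.3% as higher. They were Htr2a (-1.39, SE 0.25, adjusted p = 0.0139), Htr4 (-1.50, SE 0.38, adjusted p = 0.0358) and Htr2c (-0.87, SE 0.24, adjusted p = 0.0439). The change of Htr2c had the opposite sign in the counts as deposited (0.20, SE 0.27). With the trend removed and the conditioned 1 h pair left out, 0 of 9 passed, with Htr2a at -1.34 (adjusted p = 0.053), Htr4 at -1.24 (0.309) and Htr2c at -0.97 (0.134), where 4.26% of rows passed. Whether a time difference of these receptors is hidden or made by the GC trend was not tested.

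**Figure D4:**
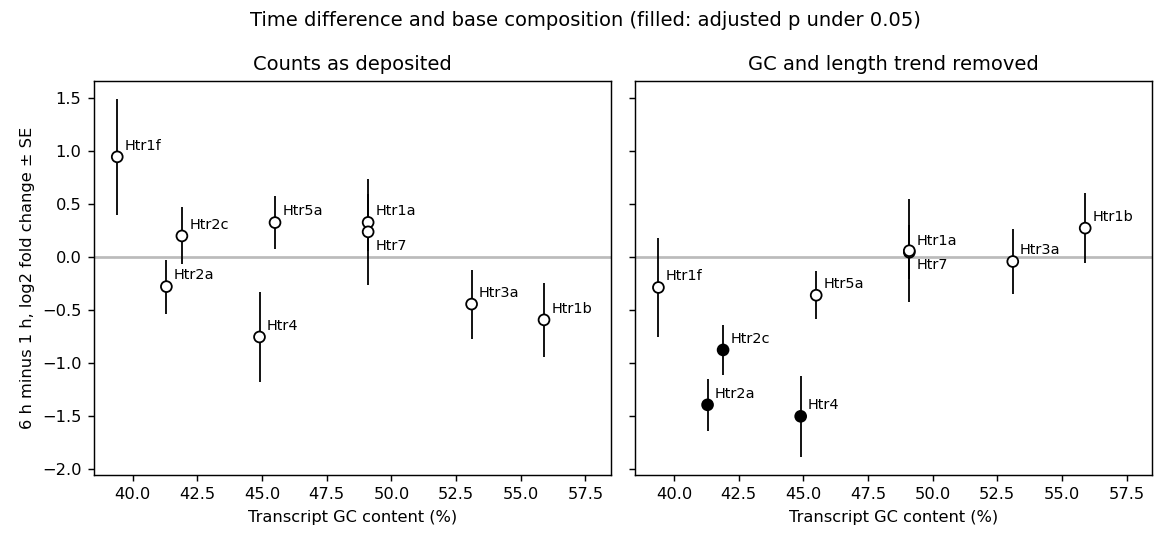
Log2 fold change of the 9 receptors from 1 h to 6 h (y axis, bars ± SE) against transcript GC content (x axis, percent), in the counts as deposited (left) and with the trend in GC content and length removed (right); filled points passed an adjusted p of 0.05. No receptor is filled on the left, and Htr2a (-1.39), Htr4 (-1.50) and Htr2c (-0.87) are filled on the right.

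Effectors and partners of the receptors are given beside the shares of all rows, of which 20.5% passed as higher and 17.2% as lower at 6 h. Of 9 Gq effectors 5 were higher at 6 h, among them Prkcb, a protein kinase C (1.80, SE 0.34, edgeR adjusted p = 0.00728), Plcb1, a phospholipase C (1.44), and Gnaq, the Gq alpha subunit (1.12). Of 10 Gi/o effectors 3 were higher, Gnai1 (1.55), Gnao1 (0.92) and Gnai3 (0.75), and of 12 Gs effectors 4 were higher, with Pde4b at 0.95, and Adcy3 was lower (-1.03). Of 12 receptor partners and regulators 5 were lower and 1 higher. Those lower were Cc2d1a (-1.49) and Deaf1 (-1.44), known regulators of Htr1a transcription, S100a10 (-1.29), an adaptor that binds Htr1b and Htr4 receptors, Rapgef3, an exchange factor activated by cyclic AMP (-1.35), and Arrb2, an arrestin (-0.78), and Ric3, a chaperone of the 5-HT3 channel, was higher (1.15). With the GC and length trend removed, where 6.3% of rows passed as higher and 3.63% as lower, Prkcb (1.75, adjusted p = 0.011), Gnao1 (0.91, 0.0265) and Gnal (1.00, 0.0151) passed, none of the 12 partners did, and Kcnj3 (-0.93, 0.0355) and Rgs4 (-0.62, 0.046) passed as lower. Gnas (1.20, 0.0154) and Adcy5 (0.75, 0.0421) passed as higher in that fit and not in the counts as deposited. Without cortex control 1 h none of these time calls in the counts as deposited remained, since 0 rows passed.

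The comparison of conditioned with control libraries asks which receptor messages differ after fear conditioning. No receptor passed, 0 of 9 in edgeR and in DESeq2 and 0 of 9 at an unadjusted p under 0.05, and the same held for all rows, 0% of 16378, with 296 at an unadjusted p under 0.05. The largest differences were those of Htr7 (0.56, SE 0.50), Htr4 (0.50, SE 0.43), Htr1b (-0.43, SE 0.35) and Htr1f (-0.36, SE 0.53). The best-counted receptors differed by 0.30 (Htr5a, SE 0.25), 0.26 (Htr2a, SE 0.26), 0.09 (Htr1a, SE 0.26) and -0.04 (Htr2c, SE 0.27), with edgeR adjusted p of 0.943, 0.943, 0.967 and 0.989. Conditioned and control libraries, each group holding both tissues, overlapped for all 9 receptors. The share of all rows that did so was not measured. Htr1a stood at 20.7 ± 7.20 CPM in controls (n = 4) and 22.2 ± 4.89 CPM after conditioning (n = 3), and Htr5a at 22.0 ± 11.5 and 26.0 ± 9.65 CPM.

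Within a tissue at 6 h, 1 control and 1 conditioned library can be set side by side without a test. In cortex the receptors with the most counts were nearly equal in both. Htr2a had 230 counts after context alone and 218 after conditioning, a ratio of 0.96 (counting interval 0.79 to 1.16). The ratio was 1.05 for Htr5a (0.86 to 1.29), 1.02 for Htr2c (0.77 to 1.34) and 1.00 for Htr1a (0.75 to 1.33). Htr1b was the lowest of those with at least 30 counts in all, with 33 counts after context alone and 18 after conditioning (ratio 0.55, interval 0.29 to 1.006). The same libraries also differed in markers of striatal projection neurons, summed at 532.5 CPM in the control and 273.8 CPM in the conditioned one. The part of these neurons in the Htr1b ratio was not tested. None of the 9 receptors was past 2-fold in log2 CPM with a prior count of 2, where 2.16% of rows were.

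In hippocampus at 6 h the ratios of conditioned to control were 1.12 for Htr1a (interval 0.79 to 1.61), 0.86 for Htr2c (0.60 to 1.23), 1.26 for Htr5a (0.80 to 2.05), 1.19 for Htr2a (0.63 to 2.36), 0.96 for Htr3a (0.55 to 1.71) and 1.08 for Htr4 (0.50 to 2.51). The 2 receptors past 2-fold were Htr1f, with 6 control counts and 3 conditioned ones, and Htr7, with 1 and 13, where 34.6% of rows were past 2-fold. That control library is the one rich in Kif5c. In edgeR, 2 tests asked whether the tissue difference itself differed by training or by time, each over all 6 libraries. The first set the conditioned 6 h libraries against the controls of both times. In the second, the 6 h libraries of both training states were set against the 1 h controls. They found 0 of 9 receptors and 0 of 16824 rows, with 425 and 229 rows at an unadjusted p under 0.05. These fits left 1 residual degree of freedom.

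The conditioned 1 h pair is described apart, since its tissue labels are not borne out. Between its libraries no receptor differed by an exact binomial test (9 tests, lowest p = 0.0623, adjusted 0.549, for Htr2a with 139 and 103 counts). Htr1a, Htr2a, Htr2c, Htr3a, Htr4 and Htr5a lay between the cortex and hippocampus 1 h controls in both libraries of the pair. How large a share of all rows did so was not measured. In the pair Htr4 had 4.35 and 4.37 CPM, against 1.06 CPM in the cortex control and 6.03 CPM in the hippocampus control. Htr3a had 9.17 and 9.46 CPM against 5.57 and 11.4 CPM. A difference of either library from its own tissue's control at 1 h therefore cannot be told apart from a difference in tissue content.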

How the data were processed

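Per the labels' protocols, polyribosome-associated RNA (200 ng) was depleted of ribosomal RNA, turned into cDNA from hexamer and poly A priming, and amplified by SPIA and PCR. The authors deposited 1 table of read counts per RefSeq transcript, 28157 rows, with no scaling. The build was mm9, and the tools TopHat 1.3.1, CASAVA 1.7, limma 3.12.3 and edgeR 2.612, per the submitters' processing notes, which state no roles. The sources used here do not give the counting program or its use of strand, so reads of overlapping genes or near-identical copies could be shared. Reads carry no molecular identifiers, so intervals cover counting error only.

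Of the rows, 97.9% were matched to symbols, and 97.5% to GC content and length, through RefSeq and GENCODE tables of GRCm38. That build differs from mm9, so it gave names, lengths and sequences only. All columns belonged to the 8 libraries. Tests were edgeR 4.0.16 quasi-likelihood fits (R 4.3.3, robust, TMM, default low-count filter, Benjamini-Hochberg over all rows at 0.05). The tissue fit held 6 libraries with training and time as a block (2 residual degrees of freedom). The time and training fit held 7, the summed pair coded midway between tissues, with tissue as a covariate (3 residual degrees of freedom). CPM used TMM factors of the 8 libraries. Alternatives included DESeq2 1.42.0. The fits were tested on simulated data. The members, gene lists, alternatives and the rule for named genes (all 9 receptors, the 3 most correlated genes each, and pathway genes that passed) were chosen with earlier results of these data known. Of the correlated genes, 1 is not reported here.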

Additional observations from a re-analysis of the deposited data

How the results depend on the processing

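Between tissues, 3 receptors passed, and 1 to 4 when each library was left out in turn (1 without hippocampus conditioned 6 h). With the conditioned 1 h pair used as labelled 0 passed, and with tissue alone, no replicate block, 1 passed of 8 tested. Htr2a, Htr5a, Htr4, Htr3a, Htr1a, Htr1b and Htr1f kept their direction in all 15 alternatives. The direction of Htr2c (0.07) turned with GC and length offsets (-0.21) and ranged from -0.15 to 0.32 over the left-out libraries. That of Htr7 (-0.18) turned with the pair as labelled (0.061) and ranged from -0.87 to 0.39. All rows called numbered 600, and 0 with the pair as labelled, 47 without the block, 337 with rows of a gene summed, 921 without a low-count filter, 954 with GC and length offsets and 200 to 874 over the left-out libraries.

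For time, 0 receptors passed, in each left-out library too, and 3 with GC and length offsets, which by construction remove each library's trend with base composition. With these offsets Htr1b stood at 0.28, Htr1f at -0.28, Htr2c at -0.87 and Htr5a at -0.36, and without the pair as well at 0.66, -0.034, -0.97 and -0.36, with Htr3a at 0.33. Htr7 ranged from -0.32 to 0.53 over the left-out libraries. All rows called numbered 6167, 3745 without the pair, 1588 with the offsets, 670 with both, and 0 to 7327 over the left-out libraries (0 without cortex control 1 h).

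For training, 0 receptors and 0 rows passed in each alternative. Htr2c stood at 0.22 with the offsets and Htr4 at -0.041 without the pair. Over the left-out libraries Htr1a ranged from -0.018 to 0.22, Htr1f from -0.69 to 0.041, Htr2c from -0.17 to 0.12 and Htr3a from -0.29 to 0.17. The cause of these changes of sign was not tested. The labels give no replicate numbers, so pairing rests on the labelled combination of training and time, which is the block of the tissue fit. The low-count filter by group and the offsets without the pair were chosen after seeing the data. Htr1f, Htr7 and Htr4 had 57, 72 and 108 counts over all libraries, which limits what their differences can show.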
